A study of Mus musculus with 23 samples.

Results

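The 5 libraries of resting striatal microglia from control offspring, labelled CON_SAL, were 5 of the 23 ATAC-seq libraries of the series and were chosen by that label alone. They came from male mice aged 8 to 10 weeks, offspring of the control group (CON), collected 18 h after a saline injection (SAL). Microglia were sorted from the striatum after papain digestion at 37 °C, by a gate for live cells that were CD11b+, CD45-low and P2RY12+. The other groups, which received the same gate, were 7 CON_LPS, 6 MIA_SAL and 5 MIA_LPS libraries, where MIA stands for offspring exposed to maternal immune activation and LPS for an injection of lipopolysaccharide at 4500 EU/g. The labels leave the agent of maternal immune activation unnamed (not given in the sources used here). Whether the libraries of a group are separate animals is not stated, so spreads and p-values cover only the spread between these libraries, which may be technical.

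Microglia are the resident macrophages of the brain. They arise from yolk sac progenitors, depend on signalling through the receptor CSF1R and on the transcription factors PU.1 and IRF8, and keep their tissue identity in part through SALL1 and transforming growth factor beta signalling. ATAC-seq uses a transposase that inserts into open DNA, so peaks mark promoters, enhancers and other accessible sites. Promoters of widely expressed genes are usually open in most cell types, whereas sites away from promoters differ more between cell types.

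Sequences of open gene starts are shown first, because most of the 1000 strongest shared regions lay at gene ends, and open starts differed in base composition from closed starts. Of 21045 RefSeq starts of protein-coding genes, 40.2% lay inside a region open in all 5 libraries. Below are the 150 bases before the start of 4 genes whose start region was among the strongest (Selenoi, an enzyme of phospholipid synthesis; Rcn2, a calcium-binding protein of the secretory pathway; Ube2t, a ubiquitin-conjugating enzyme of DNA repair; Cfdp1, a chromatin protein), of 3 genes of microglia and other myeloid cells with an open start (Irf8, the transcription factor; C1qb, a complement C1q chain; Itgam, which encodes CD11b), and of Slc2a5, a fructose transporter enriched in microglia, whose start had no peak. They were picked as examples after their values were seen, come from RefSeq on GRCm38.p6, and run 5′ to 3′ on the gene's strand. Capitals mark, on either strand, the GC box GGGCGG, the CCAAT box CCAAT, the ETS site CCGGAAGT, the E-box CACGTG and the TATA box TATAAA.
Selenoi, chr5:30232431-30232580 (plus strand): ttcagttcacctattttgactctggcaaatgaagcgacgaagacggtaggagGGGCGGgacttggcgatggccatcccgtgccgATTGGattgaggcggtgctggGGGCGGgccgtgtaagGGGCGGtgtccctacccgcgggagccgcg
Rcn2, chr9:56041695-56041844 (plus strand): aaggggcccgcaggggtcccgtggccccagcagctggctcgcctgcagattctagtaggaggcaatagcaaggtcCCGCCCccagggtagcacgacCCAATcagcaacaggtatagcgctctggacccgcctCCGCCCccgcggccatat
Ube2t, chr1:134962415-134962564 (plus strand): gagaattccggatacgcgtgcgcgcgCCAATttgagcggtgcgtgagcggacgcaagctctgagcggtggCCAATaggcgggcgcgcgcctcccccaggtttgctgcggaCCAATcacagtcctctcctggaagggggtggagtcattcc
Cfdp1, chr8:111854338-111854487 (minus strand): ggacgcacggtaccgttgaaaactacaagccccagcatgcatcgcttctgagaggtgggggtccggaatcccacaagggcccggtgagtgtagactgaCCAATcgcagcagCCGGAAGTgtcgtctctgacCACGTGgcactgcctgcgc
Irf8, chr8:120736208-120736357 (plus strand): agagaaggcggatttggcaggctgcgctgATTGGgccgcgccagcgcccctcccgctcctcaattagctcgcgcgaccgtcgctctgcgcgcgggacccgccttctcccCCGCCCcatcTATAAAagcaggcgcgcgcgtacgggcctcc
C1qb, chr4:136886201-136886350 (minus strand): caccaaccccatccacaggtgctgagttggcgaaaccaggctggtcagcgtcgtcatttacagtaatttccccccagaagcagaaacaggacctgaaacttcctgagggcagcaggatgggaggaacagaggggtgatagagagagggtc
Itgam, chr7:128062490-128062639 (plus strand): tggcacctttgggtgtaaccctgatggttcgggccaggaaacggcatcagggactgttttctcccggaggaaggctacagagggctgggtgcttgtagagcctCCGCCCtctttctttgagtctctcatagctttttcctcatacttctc
Slc2a5, chr4:150119194-150119343 (plus strand): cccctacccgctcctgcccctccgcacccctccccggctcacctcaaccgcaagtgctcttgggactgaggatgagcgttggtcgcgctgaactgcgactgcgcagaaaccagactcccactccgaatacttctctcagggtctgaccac

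The start region of Selenoi had fold enrichments over local background, as the authors' peak caller gave them, of 17.7, 22.9, 15.6, 24.8 and 20.4 in CON_SAL 1 to 5, and ranked 18 among all shared regions. The start of Irf8 ranked 7121, that of C1qb 14734 and that of Itgam 22853. Slc2a5 still had 2 shared regions within 20 kb.

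The 5 lists held 37528, 39071, 40894, 53901 and 48036 peaks on chromosomes 1 to 19 and X in CON_SAL 1 to 5. The median fold enrichment of a peak was 5.15, 5.44, 4.36, 6.01 and 5.28, and the median peak width was 244, 218, 189, 246 and 277 bp. The number of reads per library is unknown, so no counting interval can be given. CON_SAL 3 stood apart: it had the narrowest peaks, the lowest median fold and the fewest sorted cells, 10560 against 12500 to 25000 in the others. CON_SAL 4 and 5, each from 25000 cells, carried the same second number in their sample ID, whose meaning is not stated. They shared 73.0% of the peaks found in either library, against 48.3% to 64.4% in the other 9 pairs.

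Peaks were gathered into 70377 non-overlapping regions that reach 250 bp to either side of a summit, of which 23833 (33.9%) were found in every CON_SAL library. These are called core regions. Another 22741 regions (32.3%) had a peak in 1 library only, and 9323, 7375 and 7105 had one in 2, 3 and 4 libraries. Most regions were therefore either fully shared or seen once. Of the regions missing from a single library, 53.9% were missing from CON_SAL 3, 22.3% from CON_SAL 1 and 19.7% from CON_SAL 2, but 1.17% from CON_SAL 4 and 2.91% from CON_SAL 5. Without CON_SAL 3 the core came to 27481 regions. The share of each library's peaks that lay in the core was 62.6%, 60.6%, 58.5%, 42.8% and 47.6%.

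Strong peaks were shared and weak ones were not, which is a description because the core was chosen on the same lists. With each library's peaks cut by fold into 10 equal parts, 99.7% of the strongest part ± 0.194 (SD, n = 5) lay in the core. The share was 57.4% ± 14.3 in the fifth part and 14.2% ± 8.25 in the last. The median fold of a region, which was 3.62 where 1 library had the peak, was 7.18 in the core.

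**Figure D1:**
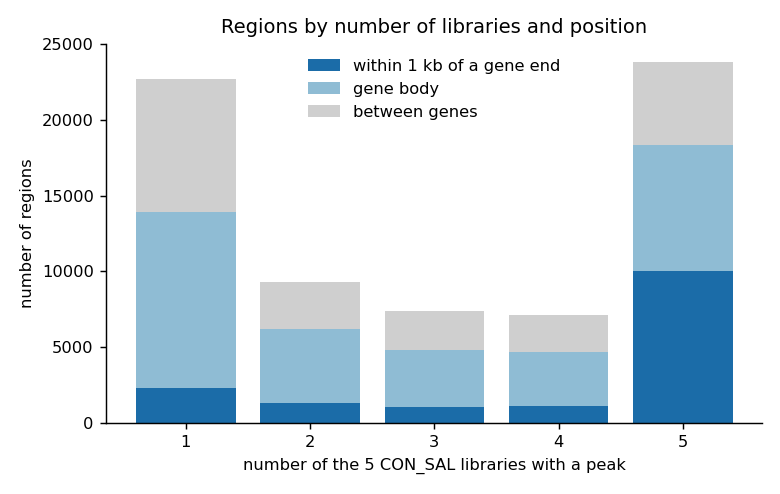
Number of regions (vertical axis) by the number of CON_SAL libraries with a peak (horizontal axis), split by the position of the summit. The bar for all 5 libraries holds 23833 regions, 10036 of them within 1 kb of a gene end, while the bar for 1 library holds 22741, of which 2304 are at a gene end.

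Core regions lay at gene ends far more often than the rest. A summit no more than 1 kb from an end of any protein-coding gene was counted as gene end, another summit inside a gene as gene body, and the rest as between genes. Of the core regions, 10036 (42.1%) were at a gene end, 8305 (34.8%) in a gene body and 5492 (23.04%) between genes. The gene-end share was 10.1% where 1 library had the peak, 13.7% for 2, 14.5% for 3 and 16.1% for 4 libraries, so it stood apart in the fully shared class. Within each library, peaks in the core were at a gene end in 40.97% to 41.6% of cases and other peaks in 12.2% to 21.5%. The difference averaged 25.2 percentage points ± 3.66 (SD, n = 5), was above 0 in 5 of 5 libraries, and had p = 0.062 in an exact two-sided sign-flip permutation test, the smallest p that 5 libraries allow. The core was chosen on these same lists and is the same set of regions in each library. The differences are therefore not independent, and this p is a description only.

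Gene-end peaks were also the stronger ones. The median rank percentile by fold, where 0 is the strongest peak of a library, was 24.1 ± 2.38 for gene-end peaks, 58.2 ± 0.628 for gene-body peaks and 55.0 ± 1.77 for peaks between genes (SD, n = 5). The gene-end median minus the between-gene median was between -32.01 and -29.8 points in the 5 libraries, and the gene-end minus the gene-body median between -36.4 and -31.5 points. Each of these exact permutation tests gave p = 0.062, again the smallest possible. Among the 1000 strongest core regions 86.5% were at a gene end, against 25.0% of the last 1000.

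The gene ends in question were mostly starts. Strand was known for 8134 gene-end core regions through the nearest gene, and 93.2% of those lay within 1 kb of a start. Over core regions within 1 kb of a start the median summit was 35 bp before it, and 67.1% were upstream. On the X chromosome lay 412 core regions, 1.73% of the core, while 4.47% of protein-coding genes are there. Of those on X 57.3% were at a gene end, against 41.8% on the autosomes.

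**Figure D2:**
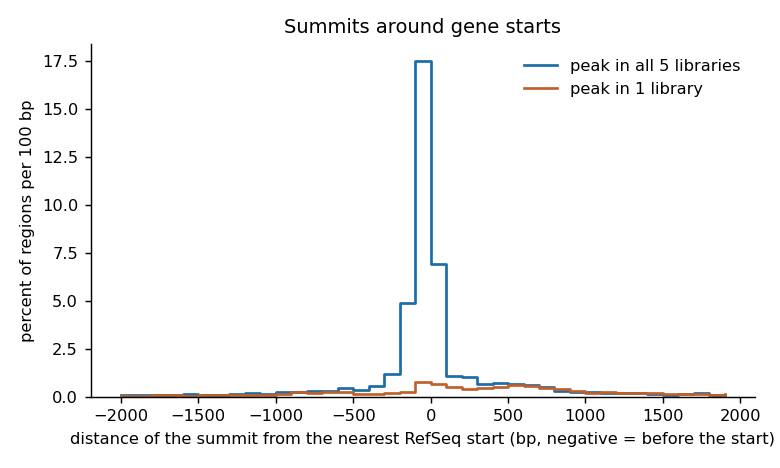
Distance of region summits from the nearest RefSeq start in bp (horizontal axis, negative before the start) and the percent of regions per 100 bp (vertical axis), for regions with a peak in all 5 CON_SAL libraries and in 1 library. In the 100 bp before the start lie 17.5% of the core regions that could be placed, the highest of all bins.

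Open starts differed from closed ones in base composition. The median GC content of the 300 bases from 250 before to 50 after a start was 62.3% for the 891 starts in the 1000 strongest core regions and 62.3% for the 7569 other core starts. It was 60.7% for 1706 starts inside a region with a peak in 1 to 4 libraries (partly open). For 10879 starts inside no region, called closed here, it was 50.3%. The class goes by the region that holds the start base, so a start called closed can lie near a core region. That of Icam1 lay 593 bp from a core summit. How many closed starts lie so near was not counted. The median number of CG dinucleotides in the 4 classes was 24, 23, 15 and 4.

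The GC box GGGCGG, bound by SP and KLF factors and counted on both strands, occurred in 79.0% of the strongest starts, 71.1% of other core starts, 54.7% of partly open and 25.7% of closed starts, against 46.7% of all starts. The CCAAT box of NF-Y (CCAAT) set the strongest starts apart from the other core starts: 61.3% held it, against 38.4% of other core starts, 31.8% of partly open, 37.7% of closed and 38.5% of all starts. Among the examples, Ube2t has 3 CCAAT boxes, and the weaker start of Irf8 also holds the box. The examples were picked after their values were seen, so they are no support for these shares. The ETS site CCGGAAGT was in 11.2% and 10.6% of both core classes, 2.93% of partly open, 1.33% of closed and 5.20% of all starts. The GC-rich sites are shared by promoters of similar composition, so these shares do not separate a motif from base composition.

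Other motifs followed no single order. GAGGAAGT, the form of ETS site bound by PU.1, was in 3.25% of the strongest and 3.01% of closed starts, against 3.15% of all. The TATA box TATAAA was in 3.37% of the strongest, 5.59% of other core, 9.20% of partly open and 18.9% of closed starts. The AP-1 site TGANTCA was in 2.81%, 3.94%, 6.45% and 9.63%. CACGTG was in 10.5% of the strongest and 7.91% of all starts. Also searched were TGACGTCA, the cyclic AMP response element (4.26% of the strongest, 2.26% of all), a site of NRF1 (2.47% and 1.34%), a site of YY1 (2.36% and 0.893%) and the core of the interferon-stimulated response element (2.13% and 3.38%). Occurrences may overlap each other, and a match is a string of letters, not a bound site.

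The 5 markers of microglia all had core regions, but such a count does not by itself check the label. In the body or within 20 kb, Slc1a3 of astrocytes and Mbp of the oligodendrocyte lineage had 7 core regions each. P2ry12, the purinergic receptor used in the sort, had 7 core regions in its body or within 20 kb. Tmem119, a microglial membrane protein, had 6, Cx3cr1, the fractalkine receptor, 6, Csf1r, the receptor for CSF1 and interleukin-34, 5, and Sall1 3. Over all 21631 protein-coding genes 65.9% had a core region within this distance and 46.6% had one within 1 kb of an end, with a median of 1 core region per gene. P2ry12 is not independent evidence of the label, since the gate selected cells by its protein.

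The strongest marker region lay at the gene end of Tmem119, 58 bp from it, at chr5:113800204-113800704. Its folds were 9.19, 10.1, 7.64, 12.02 and 8.17 in CON_SAL 1 to 5 (9.43 ± 1.73, SD, n = 5). It was lowest in CON_SAL 3 and highest in CON_SAL 4. The same region is also the strongest near Selplg, a selectin ligand that neighbours Tmem119. Most of the 6 core regions counted for Tmem119 lay in the body of another neighbour, Iscu, or nearest to an end of Iscu.

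P2ry12 had its strongest region inside the gene, at chr3:59228614-59229114, with folds of 8.09, 10.7, 8.05, 10.2 and 9.34. The gene lies inside a much longer one, Med12l. P2ry12 had no core region within 1 kb of an end, and its RefSeq start had a peak in only part of the libraries. Another of its core regions lay 1080 bp before the start of P2ry13, a related receptor gene next to it. A further one, chr3:59219988-59220488, was weak, with folds of 3.46, 4.10, 3.89, 4.94 and 5.71, and had a peak in 4 of 6 MIA_SAL, 2 of 7 CON_LPS and 0 of 5 MIA_LPS libraries. It was singled out after its values were seen, with no test.

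The start of Cx3cr1 was open in all 5 libraries at chr9:120068046-120068546, with folds of 4.56, 9.26, 4.496, 6.88 and 6.05. CON_SAL 2 stood above the other 4 there. Its strongest region was 10942 bp from the end of Xirp1 and beyond the far end of Cx3cr1, with folds of 6.18, 7.48, 6.98, 7.72 and 7.25.

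Csf1r had its strongest region 6417 bp from the gene, between genes, with folds of 6.97, 8.19, 8.43, 10.1 and 7.37. It had no core region within 1 kb of an end. Pdgfrb, a pericyte gene that neighbours Csf1r, has the same region as its strongest.

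Sall1 had folds of 5.997, 8.36, 5.63, 7.81 and 5.59 around its starts. There 2 of the 3 core regions shared the same wide peak in every library, so they count as 1 site. Over the whole core 162 regions shared their peaks with a neighbour in this way.

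None of the marker regions was among the strongest of the genome. The best median rank of a marker was 6734, for Tmem119, then 7439 for P2ry12, 10550 for Csf1r, 13380 for Cx3cr1 and 14254 for Sall1. Over all genes with a core region the median best rank was 4774. The markers thus had more core regions within 20 kb than the median gene, some of them at neighbouring genes, and weaker best ones.

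**Figure D3:**
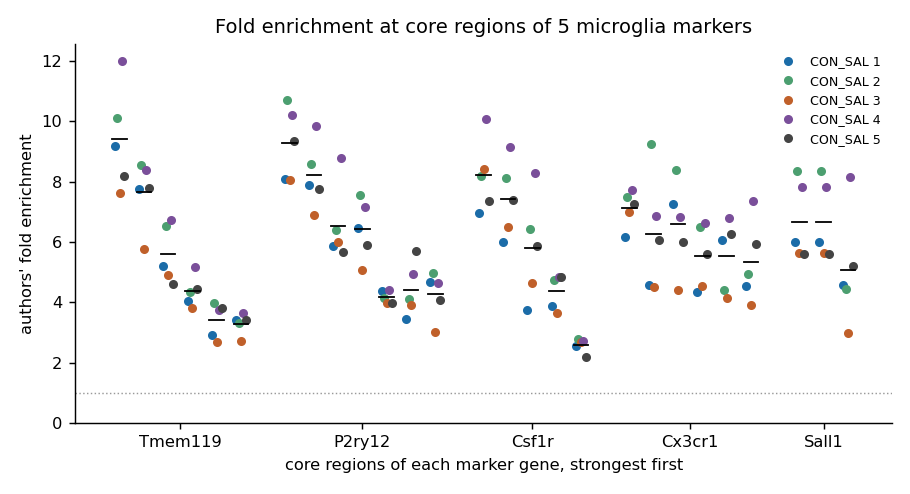
Authors' fold enrichment (vertical axis, from 0; dotted line at 1, no enrichment) at every core region in the body or within 20 kb of 5 microglia markers, 1 point per CON_SAL library and a bar at the mean. The highest mean, 9.43, belongs to Tmem119, and all points lie above the line.

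Genes of microglia and of the myeloid lineage were covered throughout. All 24 other microglia-enriched genes and all 20 myeloid transcription factors had a core region within 20 kb, against 65.9% of all genes, and 17 of 24 and 16 of 20 had one at an end, against 46.6%. The median number of core regions was 3 and 5, against 1. Such coverage was not particular to these lists. All 15 housekeeping and all 16 immediate early genes also had a core region within 20 kb, and 13 and 14 had one at an end. Among the enriched genes Entpd1, the ectonucleotidase CD39, had the strongest region, at its start and 13 bp from the end of Tctn3, with folds of 13.3, 18.1, 13.5, 19.3 and 12.5. Tgfbr1, the type I receptor for transforming growth factor beta, followed at its start with folds of 9.72, 15.2, 10.7, 11.9 and 9.39. Itgam had its strongest region inside the gene, with folds of 10.5, 9.02, 8.74, 13.7 and 10.6. The strongest region near Siglech, a sialic acid-binding lectin, sat at the end of Tubgcp5, a neighbour. Listed genes that lie side by side were not separate sites. C1qa, C1qb and C1qc had the same strongest region, and P2ry13 had that of P2ry12.

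Among the transcription factors Klf2 was strongest at its own start, with folds of 12.5, 11.6, 7.80, 13.2 and 9.68, and CON_SAL 3 was again lowest. Mef2c, a factor linked to microglial restraint, had folds of 9.39, 12.9, 8.48, 10.4 and 9.02 in its body. The strongest regions near Mef2a and Elf1 lay at the ends of the neighbours Lysmd4 and Sugt1. A region near a gene is therefore not always at that gene, and the count at gene ends is the stricter one.

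Marker genes of other cell types were covered less often at their ends. Core regions at an end were found for 0 of 10 genes of border-associated macrophages, 0 of 14 of monocytes and neutrophils, 1 of 20 of neurons, 3 of 12 of astrocytes, 2 of 12 of the oligodendrocyte lineage, 3 of 12 of endothelial and mural cells and 2 of 12 of lymphocytes, against 46.6% of all genes. Within 20 kb the counts were 7, 5, 9, 8, 6, 7 and 8 of the same numbers of genes, against 65.9% of all genes. At that distance border-associated macrophages (70.0%), astrocytes (66.7%) and lymphocytes (66.7%) were not below all genes, and the other 4 lists were, at 35.7% to 58.3%. The median number of core regions in these lists was between 0 and 1.5.

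Many of those within 20 kb sat at a neighbouring gene. Grin1, a subunit of the NMDA receptor, had its strongest region at the end of Man1b1, Slc32a1, the vesicular GABA transporter, at Actr5, Pvalb at Ift27 and Rbfox3, which encodes NeuN, at Engase. The same held for S100b at Prmt2, Aldh1l1 at Slc41a3, Sox10 at Polr2f, Cd3d and Cd3g at Ube4a, Cbr2 at Lrrc45, Lyve1 at Rnf141, Stab1 at Smim4, Camp at Nme6 and Ngp at Ptpn23. The strongest regions near Cnp, Flt1, Plac8 and Cd79a lay in the bodies of Ttc25, Pan3, Cops4 and Arhgef1. The last of these was 64 bp before a RefSeq start of Arhgef1. The region of Aldoc lay at the start of Pigs and also within 1 kb of an end of Aldoc. F13a1, of border-associated macrophages, was the nearest gene to its own strongest region, 6621 bp away, with folds of 7.27, 7.63, 6.66, 7.27 and 9.42. So was Ltf, which encodes the neutrophil protein lactoferrin, 3644 bp away, with folds of 7.99, 8.87, 6.61, 12.8 and 8.35. Mrc1, Ms4a7 and Siglec1, named after their values were seen, were likewise the nearest genes, 8543, 14110 and 3056 bp away. Other regions nearer to the gene itself were seen 5538 bp from Mog, a myelin gene, at Slc1a3, a glutamate transporter of astrocytes that had 7 core regions with folds of 8.26, 10.1, 8.15, 11.6 and 8.52 at the strongest, and in the body of Mbp, which encodes myelin basic protein, with folds of 7.89, 8.94, 5.27, 12.03 and 11.0. Cdh5, which encodes VE-cadherin, had folds of 8.08, 10.1, 5.14, 13.9 and 9.95 in its body. Kdr and Slc2a1 had core regions at an end, with folds of 9.83, 13.6, 8.07, 12.5 and 11.0 and of 8.22, 10.2, 8.32, 12.4 and 10.8.

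No peak in any of the 5 libraries, in the body or within 20 kb, was found for 21.3% of all genes. In the lists these included Cd163 and Clec4n of border-associated macrophages, Ly6c2, Ly6g, Retnlg and S100a8 of monocytes and neutrophils, Drd2, Gad1 and Penk of neurons, Aqp4 and Sox9 of astrocytes, Olig1 of the oligodendrocyte lineage, Ly6c1, Rgs5 and Tek of endothelial and mural cells, and Cd8a and Ncr1 of lymphocytes. In the same order of lists, genes without a peak numbered 2 of 10, 4 of 14, 3 of 20, 2 of 12, 2 of 12, 3 of 12 and 2 of 12. These shares lay on both sides of that of all genes, so missing peaks do not set these lists apart from all genes. Genes of striatal projection neurons differed among themselves: Drd2 and Penk had no peak, Tac1 and Adora2a had 1 and 3 regions but 0 core regions, Drd1 had 1 core region, at Sfxn1, and Ppp1r1b, which encodes DARPP-32, had 4 core regions and was the neuron gene with 1 at an end. All but Drd2 and Penk were named after their values were seen. In a bulk sample, fewer cells of a type and less open chromatin per cell cannot be told apart. The part of other cells in the core regions was not tested.

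Most listed genes of the response to LPS had core regions in these libraries from saline-injected mice. Of 20 genes of the TLR4 pathway, which carries the signal of LPS, 19 had a core region at an end, against 46.6% of all genes. Only Irf7 had none within 20 kb, where 65.9% of all genes had one. Ikbkg, which encodes NEMO, had folds of 12.1, 15.3, 12.4, 20.2 and 15.9 at its start, which lies 9 bp from the end of Fam3a. Irak4, a kinase downstream of the receptor, had folds of 10.2, 16.3, 10.5, 12.1 and 11.7 at a start it shares with Pus7l. CON_SAL 4 was highest at the first and CON_SAL 2 at the second. The strongest regions within 20 kb of the adaptors Tirap and Myd88 lay at the ends of Dcps and Xylb.

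Of 24 inflammatory genes 23 had a core region within 20 kb and 18 at an end, against 65.9% and 46.6% of all genes. The exception was Nos2, the inducible nitric oxide synthase. Ccl2, a chemokine that attracts monocytes, had a core region at its end with folds of 9.14, 10.7, 8.59, 14.2 and 10.5. Tnfaip3, a brake on NF-κB, had its strongest region 18466 bp away, with folds of 9.69, 14.4, 7.86, 12.3 and 10.7. The strongest near Relb was at Clasrp. These genes had accessible sites in cells from mice that had received saline, and accessibility alone gives no level of transcription. The part of digestion and sorting in these sites, or in those of the immediate early genes below, was not tested.

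Over all genes 65.9% had a core region within 20 kb and 46.6% had one at an end. The immediate early genes, which respond within minutes to many stimuli, were covered in 16 of 16 cases, 14 at an end. Their strongest regions lay near Nr4a1 (7441 bp away, folds of 11.5, 12.2, 10.1, 11.7 and 10.2), Klf4 (12267 bp away), Ier5 (12756 bp away) and Zfp36 (at Paf1). Junb had 9 core regions in its body or within 20 kb. All 15 housekeeping genes had a core region and 13 (86.7%) had one at an end. That share was above the inflammatory list (75.0%) and below the TLR4 list (95.0%). High coverage was therefore not particular to genes of the response to LPS. Hprt, an enzyme of purine salvage, had folds of 11.7, 15.5, 10.6, 16.5 and 13.0, and Rplp0, a ribosomal protein, 12.2, 14.7, 9.81, 12.8 and 12.7. The strongest near Tbp lay at the end of Pdcd2, and that of Sdha between neighbouring ends of Sdha and Ccdc127.

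**Figure D4:**
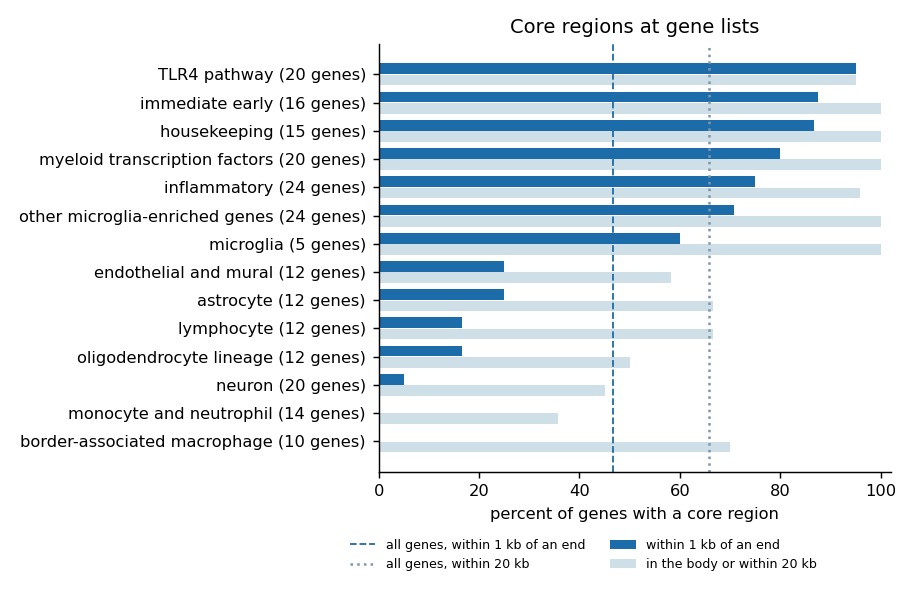
Percent of the genes of each list (horizontal axis, from 0) with a core region within 1 kb of an end and in the body or within 20 kb, with the percentages over all protein-coding genes as vertical lines at 46.6% and 65.9%. The TLR4 list reaches 95.0% at gene ends, while the lists of border-associated macrophages and of monocytes and neutrophils are at 0.

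Micro-RNA genes were covered in part. Of 1005 RefSeq hairpins 105 (10.4%) lay within 1 kb of a core summit, including 1 of 5 myeloid hairpins and 1 of 8 hairpins of other brain cells. Mir142, a hairpin of blood and immune cells, lay 186 bp from the summit of the core region chr11:87756459-87756959, whose folds were low at 4.09, 3.69, 2.50, 4.88 and 4.34. It is shown because it is the single myeloid hairpin at an open site, with the seed, bases 2 to 8, in capitals.
mmu-miR-142a-3p: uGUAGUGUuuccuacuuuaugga
mmu-miR-142a-5p: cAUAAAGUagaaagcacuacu
Within 5 kb of a core summit were 3 of the 5 myeloid hairpins, with Mir223 3033 bp and Mir21a 3026 bp from it, 2 of the 8 hairpins of other brain cells, and 275 of all (27.4%). Within 10 kb the counts were 3 of 5, 4 of 8 and 408 of all (40.6%).

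The strongest core regions of all were mostly not at gene ends. They were ordered by the median over the libraries of the rank of the fold, so their values are a description. They were not compared with a list of excluded regions, which marks sites of high signal in any library, and whether they stand on one was not tested. Of the first 14 only 1 was at a gene end, and 6 of the first 25. The first, chr9:123461741-123462241, lay at the far end of Lars2, the mitochondrial leucyl-tRNA synthetase, with folds of 48.8, 51.4, 44.9, 55.5 and 55.4. The second was 61142 bp from Axin2, an inhibitor of Wnt signalling, with folds of 47.9, 52.6, 48.9, 50.8 and 43.6. The third lay in Kctd16, with folds of 42.7, 47.3, 48.6, 43.7 and 39.3. The fourth, chr3:5860444-5860944, had no gene end within 100 kb, and its folds were 42.6, 46.9, 50.7, 52.7 and 42.3. CON_SAL 3 was the lowest library at Lars2 and not at the other 3, where CON_SAL 5 was lowest.

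The next of these were in Zc3h7a (median rank 5), 64846 bp from the complement receptor gene Cr2 (rank 6), at a site with no gene end within 100 kb (rank 7), 24375 bp from Rpp21 (rank 8) and in Cdk8, the kinase of the Mediator complex (rank 9). Each of the first 9 stood between ranks 1 and 13 in all 23 libraries of the series, treated ones included. P4ha2, Filip1l, a site on chromosome 6 without a near gene end, Gm40035 and Rpusd4 followed. Their mean folds were 27.0 ± 3.32 near P4ha2, 30.0 ± 5.87 at the site on chromosome 6 and 23.4 ± 2.40 near Rpusd4 (SD, n = 5).

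From there on gene starts became common. Selenoi, Blm (a DNA helicase), Rexo2, Glo1 (glyoxalase 1) and Scfd1 (vesicle transport) had means between 19.1 and 20.4. Regions counted to the bodies of Kifap3, Snupn and 1110004F10Rik lay within 130 bp of another RefSeq start of the same gene. Ly6c2, with a region 21275 bp away, and Gm40363, with 2 regions, were not at a gene end. Deeper in the bodies, Mrps27 had folds of 17.3, 20.4, 16.6, 24.6 and 18.2, and Camk1d 16.6, 20.5, 17.8, 21.7 and 22.0. The region counted to the body of Snapc3, with folds of 16.3, 20.3, 13.2, 21.9 and 16.8, lay 110 bp before a start. Among the first 100 core regions, 75 were at gene ends. The order depended on the measure: by −log10 p, Lars2 had a median rank of 6, Axin2 1, Selenoi 309, Kifap3 657, and the regions near Gm40363 2570 and 1630.

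The genes with the most core regions were long. Zmiz1, a transcriptional co-regulator, had 20, Bach2, a transcriptional repressor, and Capzb, an actin-capping subunit, had 18 each, and Asap1, Chd9, Ldlrad4 and Zfhx3 had 17. Cdh23 and Pxn (paxillin) had 16, Cux1, Hivep3, Itpr2, Rad51b and Snx29 had 15, and 3110082I17Rik had 14. Their lengths ran from 64018 bp for Pxn to 682326 bp for Zfhx3. Over the 137 genes with 10 or more core regions the median length was 130588 bp, against 17329 bp for all protein-coding genes. Per 100 kb searched, the order changed: 0 of these 15 genes were among the 15 densest, which were led by 6030468B19Rik with 22.1, Pnpla2 with 22.0 and Spag7 with 21.9 per 100 kb. Junb, an AP-1 subunit, came to 21.5.

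Core regions were found again in nearly every other library. With whole lists, 17187 core regions (72.1%) had a peak in all 23 libraries, and 0 had no peak in any of the 18 libraries outside CON_SAL. To compare libraries, only the 33939 peaks of each list with the highest −log10 p were kept. Of the 23833 core regions 91.1% ± 1.82 were found in the 7 CON_LPS libraries, 91.4% ± 2.22 in the 5 MIA_LPS and 94.5% ± 4.11 in the 6 MIA_SAL libraries (SD). A core built without the library in question was found in 92.6%, 93.1%, 84.4%, 96.9% and 96.6% in CON_SAL 1 to 5. CON_SAL 3 lay below all 18 libraries outside its group, on a core of 27481 regions rather than 23833.

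These group means did not differ beyond the spread between libraries. MIA_SAL and CON_LPS differ in both prenatal history and injection, and the comparison of these groups cannot tell them apart. MIA_SAL exceeded CON_LPS by 3.39 points (exact two-sided permutation test, p = 0.0781, adjusted over 3 comparisons 0.234) and MIA_LPS by 3.12 points (exact permutation p = 0.169, adjusted 0.253), and CON_LPS differed from MIA_LPS by -0.272 points (exact permutation p = 0.826). Libraries with sample ID numbers 1 to 3, lay between 87.8% and 90.9%, and the other 13 between 89.9% and 97.7%. MIA_SAL 3 and 4 were at 87.8% and 90.9%, CON_LPS 3 and 7 at 88.7% and 90.1%, and MIA_LPS 3 at 87.9%, and with so few libraries these values overlap between groups. Without these 5 libraries, a choice made after seeing the data, MIA_SAL was at 97.1% ± 0.472 (n = 4), CON_LPS at 91.8% ± 1.65 (n = 5) and MIA_LPS at 92.3% ± 1.28 (n = 4). The differences were then 5.27 and 4.82 points, each with an adjusted exact permutation p of 0.0429. Leaving out MIA_SAL 3 alone also brought the difference from CON_LPS to 4.73 points (adjusted exact permutation p = 0.0303), and so did a stricter peak threshold, to 5.04 points (adjusted 0.0140). The calls therefore turn on 1 or a few libraries and on the peak threshold. CON_SAL 3 carried such a number too.

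Core regions at gene ends were found more often than those elsewhere in all 18 libraries outside CON_SAL. The gene-end share was higher by 7.76 points ± 3.55 (SD, n = 18), between 1.84 and 13.7, with a sign-flip permutation p of 2e-05, the smallest that 100000 resamples can give. In CON_LPS, 96.4% of gene-end and 87.3% of other core regions were found, in MIA_LPS 96.2% and 87.9%, and in MIA_SAL 97.8% and 92.1%. Gene-end regions were also the stronger ones, as given above, and the part of strength in this difference was not tested. Of all core regions 15 had no peak in any of the 12 libraries from LPS-treated mice, and 1 had none in the 6 MIA_SAL libraries, with whole lists.

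**Figure D5:**
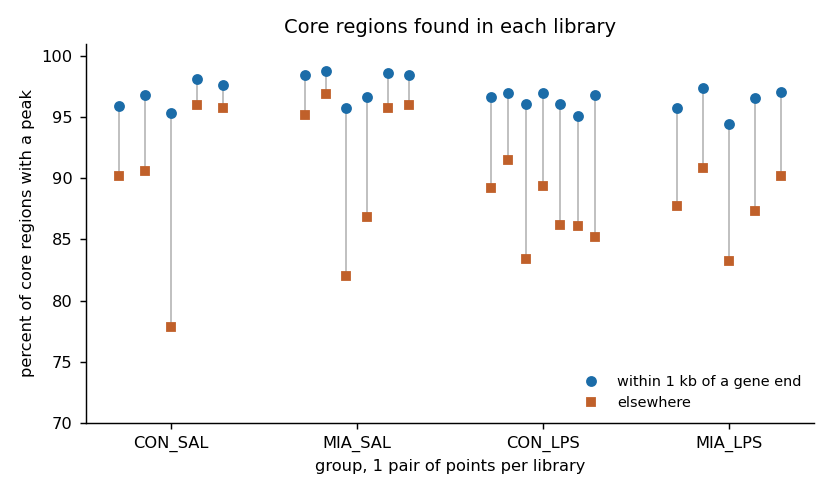
Percent of core regions with a peak in each library at equal list length (vertical axis, from 70), by group, with 1 pair of points per library for regions within 1 kb of a gene end and elsewhere. For CON_SAL the core was built without the library shown. The upper point is at 94.4% or above in every library, while the lower falls to 77.8% in CON_SAL 3.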

How the data were processed

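Chromatin accessibility was measured by ATAC-seq, with 1 list of peaks per library. The submitters' processing notes name, without their roles, MACS2, Bowtie2, SAMtools, cutadapt, Picard and DiffBind, and the builds mm10 and GRCm38. Settings and any list of excluded regions were not given in the sources used here. Per peak, the deposited values are, judged from the values, the authors' fold enrichment (a ratio), the −log10 p and −log10 q, and a score that was not used here. The lowest deposited −log10 q was 1.30. Peaks were listed per library, and no read counts were used, so depth is unknown.

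Computed here, with Python 3.11.15, numpy 2.4.6, pandas 2.3.3 and scipy 1.17.1: windows around summits, with the best fold rank kept where windows overlapped. Presence in a library meant that a peak covered 50% of the window or lay in it by 50% of its own length. Positions came from RefSeq genes on GRCm38.p6 (the build named in the notes) and starts from its promoter table, which covers 17274 of 21631 protein-coding genes and none on chromosome 18. Chromosome Y was left out of all comparisons. The steps were tested on simulated lists with known shared sites. Groups follow the labels. Differences within libraries were tested by sign flips and groups by exact permutation, with Benjamini-Hochberg adjustment over 3 comparisons.

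Named are the 25 strongest core regions, the 10 strongest in gene bodies and between genes, the 15 genes with the most core regions, the 5 markers, and in each other list the 4 genes with the strongest region and up to 10 with no peak. Some genes that the rule names are not reported here. Genes named beyond it were chosen after their values were seen. The members and the 14 gene lists were chosen with earlier results of these data known. Alternatives were list length, peak threshold, presence by summit, ranking by −log10 p, gene-end distance, gene distance, a replicate block and leaving out each library.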

Additional observations from a re-analysis of the deposited data

Results flagged for a closer look

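In CON_SAL 3, core regions built from the other 4 libraries were found more often at gene ends than elsewhere by 17.5 points, while the other 4 CON_SAL libraries were between 1.91 and 6.19. The gap to the nearest library was large against the range of the group (Dixon's criterion). Of 49 groups of values examined this was the only 1 so marked, and chance marks about 5% of such groups. CON_SAL 3 also had the fewest sorted cells and the narrowest peaks, and their part in this value was not tested.

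Chromosome Y, which entered no comparison, held 14, 12, 16, 17 and 19 peaks in CON_SAL 1 to 5, all from male mice.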

How the results depend on the processing

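Of 691 recomputed values, 298 of the main results and 340 of the named regions and genes kept their direction and call, or moved by less than the spread or 1.5 times. Of the main results 22 moved further, 6 reversed direction and 5 gained a call. Among the named regions and genes 20 values moved further. Gene-end shares depended on the definition. With a −log10 q of at least 5, 46.1% of core regions and 33.8% of peaks were at gene ends and 21.6% and 26.7% between genes. With a gene end of 500 bp the core and peak shares were 35.9% and 23.8% at gene ends, 39.7% and 46.2% in bodies and 24.4% and 29.9% between genes. With 2500 bp they were 49.6% and 37.6%, 29.4% and 36.2%, and 21.0% and 26.2%. Leaving out each CON_SAL library gave 37.5% to 42.1% of the core at gene ends and 23.04% to 24.9% between genes, with 37.5% and 24.9% without CON_SAL 3. Within 5 kb, core regions were left at 4 border-associated macrophage, 1 monocyte and neutrophil, 4 neuron and 5 lymphocyte genes. The cause was not tested.

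For core regions found elsewhere, MIA_SAL minus MIA_LPS was -0.0343 points with whole lists, 5.07 with a −log10 q of at least 5 (adjusted exact permutation p = 0.0260), and 4.82 without ID numbers 1 to 3, a setting chosen after seeing the data. MIA_SAL minus CON_LPS was 5.04 and 5.27 in the last 2 settings, and 2.75 to 4.73 when each library was left out. CON_LPS minus MIA_LPS was 0.0268 with the stricter threshold and -1.13 to 0.281 when each library was left out. With a replicate block it was 0.178, and the block changed no call (adjusted exact permutation p = 0.375, 0.875 and 0.375). Not all same-numbered libraries deviated together: r over 16411 regions was above 0.1 in 7 of 16 pairs, from -0.187 to 0.367, with all 6 pairs numbered 2 or 3 between 0.130 and 0.367, and 5 pairs matched best with their own number, so the numbers were not taken to pair the libraries. Ranking by −log10 p moved the ranks of 20 of the 25 strongest regions. Without read counts, depth could not be equalised beyond list length.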
